A study of Homo sapiens with 4 samples.

Results

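The nuclear-encoded genes of oxidative phosphorylation were compared between A375 cells exposed to octanoate and cells exposed to its solvent. Members were the rows of the gene table whose symbol began with NDUF, UQCR, COX4 to COX8 or ATP5, or was SDHA, SDHB, SDHC or SDHD, with pseudogene and antisense rows removed and rows whose 4 normalised counts averaged under 100 removed. The patterns took 126 of the 56832 rows. Of these, 30 were left out as pseudogenes, 10 fell short of that average, and 86 remained. They comprised 35 subunits of complex I, 7 complex I assembly factors named NDUFAF, 4 subunits of complex II, 9 of complex III, 14 of complex IV, 15 of complex V, and the 2 genes ATP5S and ATP5SL, which matched the pattern but are not structural subunits. The rule used the level over all libraries and not the treatment. NDUFA4 was placed with complex IV, where its product is now assigned, and its paralog NDUFA4L2 was placed beside it. No member is encoded by the mitochondrial genome.

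A375 is an established human melanoma cell line, listed in the labels with the cell type melanoma and the genotype WT. The octanoate group received octanoate at 1 mM, a saturated medium-chain fatty acid, for 48 h, and the vehicle group received isopropanol for 48 h. Each group held 2 libraries, and all 4 came from this 1 line. The labels do not say that libraries of a group came from separate cultures, so p-values measure only the spread between these samples, which may be technical.

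Oxidative phosphorylation couples the oxidation of NADH and succinate to ATP synthesis in the inner mitochondrial membrane. Complex I (NADH dehydrogenase) and complex II (succinate dehydrogenase) pass electrons to ubiquinone, complex III passes them to cytochrome c, and complex IV passes them to oxygen, while complex V (ATP synthase) uses the proton gradient. Oxidation of fatty acids feeds this chain with NADH and, through the electron transfer flavoprotein, with reduced ubiquinone. Melanoma cells use both glycolysis and oxidative phosphorylation, and their reliance on the latter varies with the regulator PGC-1alpha and the lineage factor MITF.

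The deposited values are read counts divided by 1 factor per library, and the recovered read totals ranged from 67785956 to 78005035. Members together held 0.953% and 0.944% of all normalised counts under vehicle and 0.957% and 0.919% under octanoate. Lineage markers were checked beside them: SOX10 lay between 34072 and 41363 in every library, whereas the pigment genes PMEL, MLANA and TYR were at most 98.2, 52.0 and 3.93. Summed over 8 melanocyte markers, of which 7 had a mean of at least 10, the counts were 49400 and 45149 under vehicle and 43758 and 38666 under octanoate. Of the 7, MITF and S100B were called lower (log2 differences -0.48 and -1.12) and PMEL higher (0.55), and the other 4 were not called. The summed epithelial markers (3 genes, almost all KRT14, with EPCAM between 29.1 and 31.8 in every library) were 1153 and 979 under vehicle and 300.3 and 250.3 under octanoate, the fibroblast markers (3 genes) 567 and 600 against 355 and 411, the endothelial markers (2 genes, mostly PECAM1, with CDH5 at most 21.7) 141 and 137 against 258 and 243, and the blood markers (4 genes, almost all LYZ) 653 and 588 against 707 and 761. The leukocyte markers PTPRC and CD3E were at most 10.8 and 2.91. The part of these shifts in the results on oxidative phosphorylation was not tested.

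The nuclear-encoded transcripts of the respiratory complexes differed little between octanoate and vehicle. Those of the mitochondrial genome are given further below. Of the 86 members, 16 (18.6%) were called at an adjusted p under 0.05 with limma, 9 higher and 7 lower under octanoate. Over all 20250 genes tested, 29.9% were called (16.2% higher and 13.7% lower), and over the 13482 genes that also met the mean of 100 the share was 38.3% (20.4% higher and 17.9% lower). The median log2 difference of the members, octanoate minus vehicle, was 0.02, with a range from -0.37 for NDUFC2 to 0.72 for NDUFA4L2. In size the median difference was 0.083 for the members and 0.15 for the 13482 genes at the members' minimum level. Libraries of the groups did not overlap for 37 members (43.0%), 21 higher and 16 lower, where 63.1% of all tested genes (32.6% higher, 30.5% lower) and 69.5% of those at the minimum level did not overlap. In bulk samples, fewer cells of a type and less RNA per cell cannot be told apart.

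In the limma fit most differences were bounded closely, but only between these samples. The intervals rest on 2 libraries per group, which the labels do not call separate cultures. Most of the spread behind the intervals was borrowed from other genes (21.2 degrees of freedom came from those genes). For 73 of the 86 members (84.9%) the whole 95% interval of the fold lay within 1.25-fold in either direction. The same held for 52.7% of the 13482 genes at or above the members' minimum level and for 67.7% of the genes averaging 1000 or more. Only NDUFA4L2, NDUFC2 and UQCR11 (3.49% of members) had an estimate past 1.25-fold, against 20.8% of those 13482 genes. These shares describe the list and were not tested as a property of it.

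**Figure D1:**
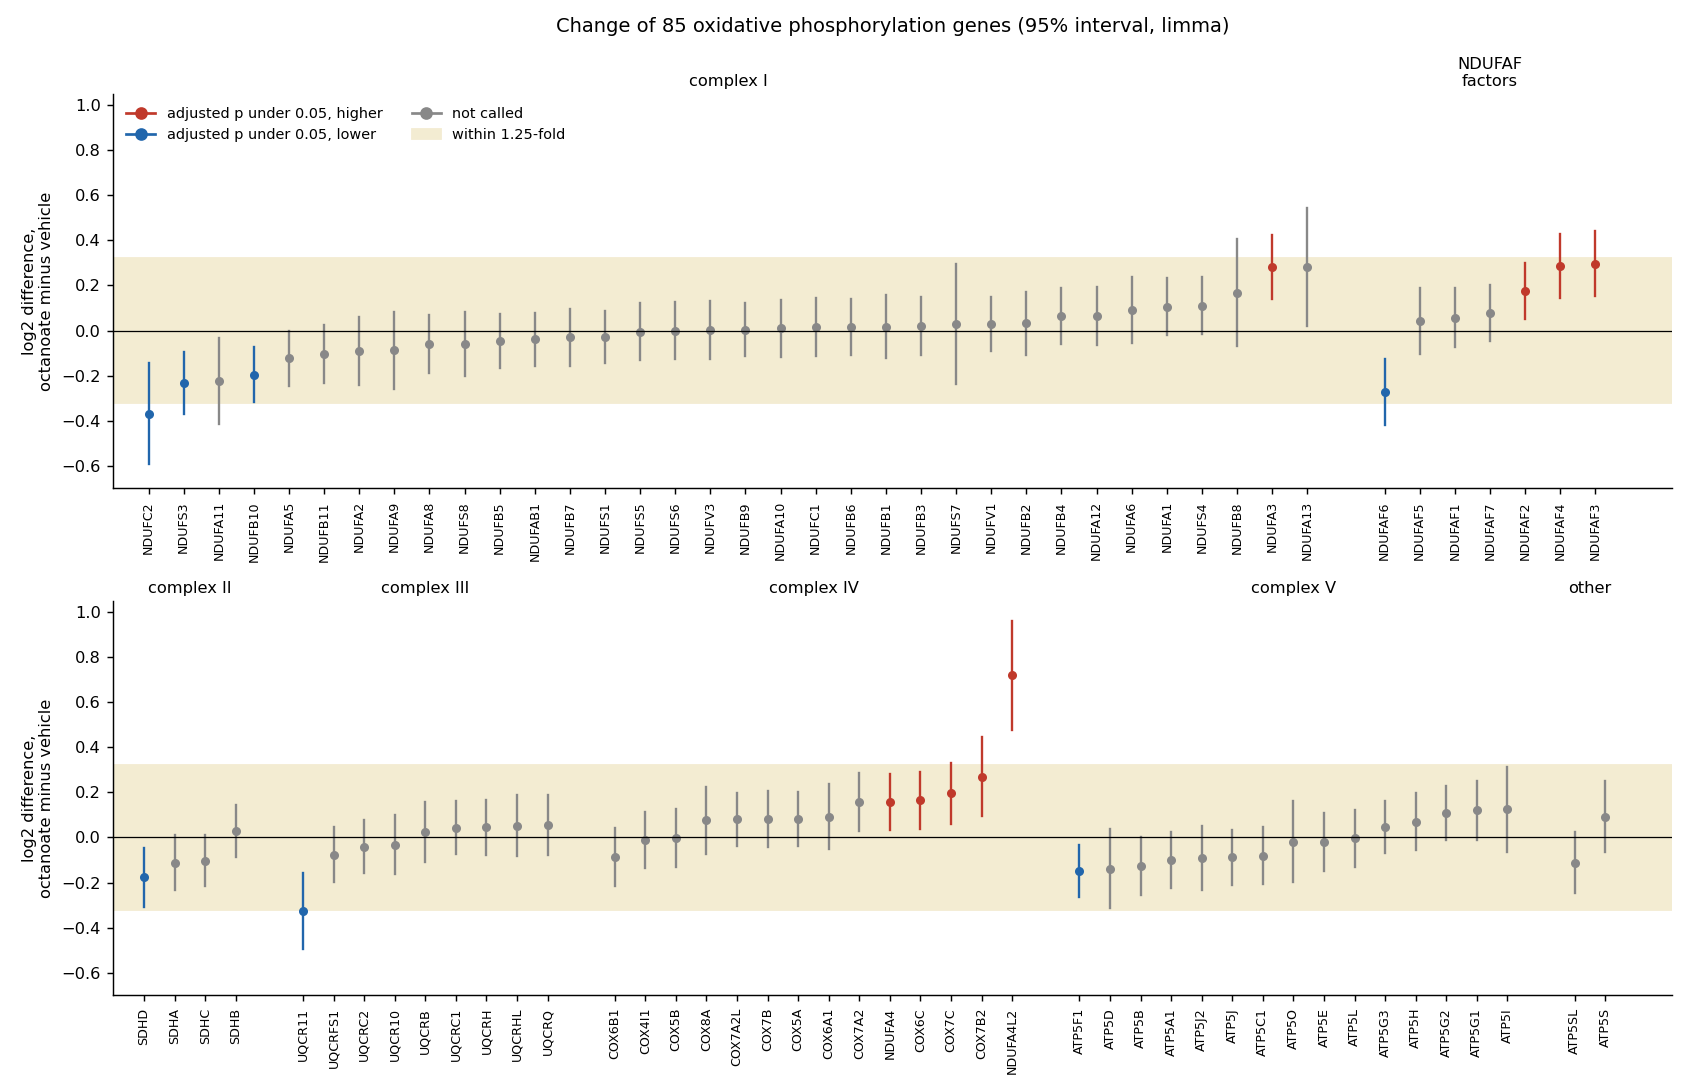
Log2 difference, octanoate minus vehicle, of 85 of the 86 members with its 95% interval from limma, grouped by complex and ordered within each group. The shaded band marks 1.25-fold in either direction, red and blue points are genes called higher and lower, and NDUFA4L2 is the member farthest from 0, at 0.72.

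Complex I had 4 of 35 members called (1 higher, 3 lower), the NDUFAF factors 4 of 7 (3 higher, 1 lower), complex II 1 of 4 (lower), complex III 1 of 9 (lower), complex IV 5 of 14 (all higher) and complex V 1 of 15 (lower). The shares were 11.4%, 57.1%, 25.0%, 11.1%, 35.7% and 6.67%, against 38.3% of the 13482 genes at the minimum level. The median log2 differences were 0.0042, 0.078, -0.11, 0.024, 0.088 and -0.02 in the same order. With NDUFA4 and NDUFA4L2 counted in complex I instead, the counts became 6 of 37 for complex I (3 higher, 3 lower) and 3 of 12 for complex IV (3 higher). These counts rested on single libraries and the difference between complexes was not tested. Without vehicle replicate 2, complex I had 4 calls, the NDUFAF factors 1 and complex IV 1, and without octanoate replicate 1 they had 3, 2 and 1. Each of the 15 intervals of complex V stayed within 1.25-fold, as did each of the 4 of complex II.

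**Figure D2:**
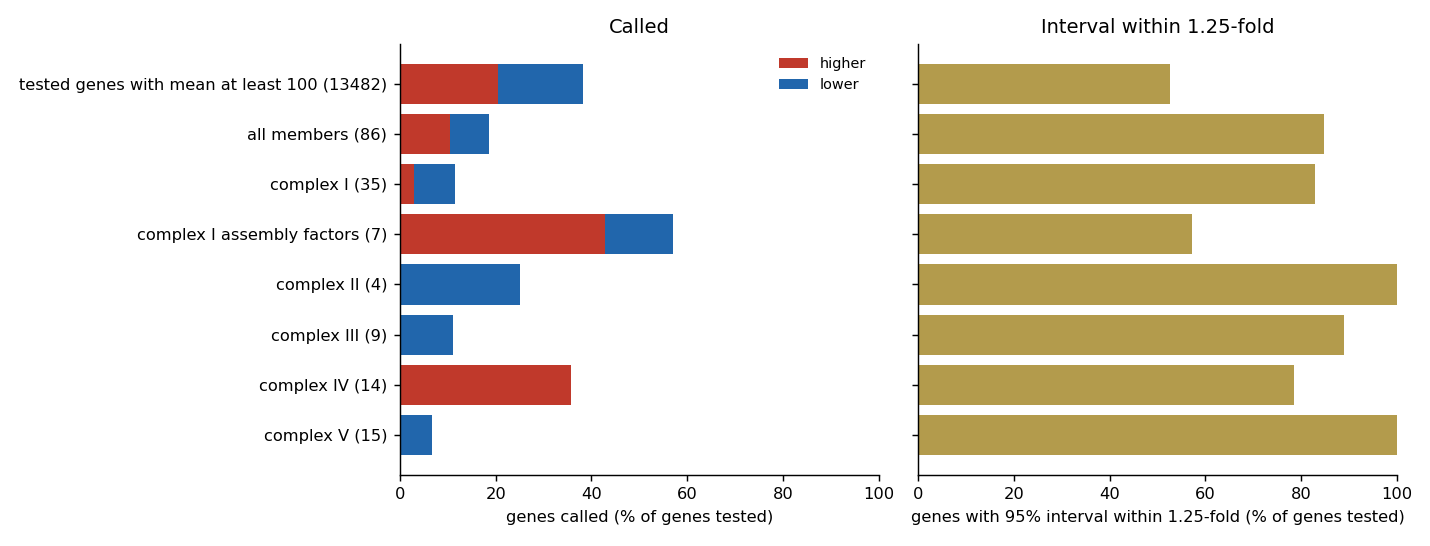
Left, the share of genes called higher (red) and lower (blue) under octanoate in each group, with the number of genes in brackets. Right, the share whose 95% interval stayed within 1.25-fold, which was 84.9% for all members and 52.7% for the 13482 tested genes at their minimum level.

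In median size, the differences between single libraries of the same group were close to those between the treatment means. Without any effect of treatment, a difference between means of 2 libraries is expected to be smaller than that between 2 single libraries. The sizes are thus not like for like, and a treatment difference no larger than a replicate difference does not show an absent effect. The median size over the 86 members was 0.077 between the vehicle libraries, 0.11 between the octanoate libraries and 0.083 between the means of the groups. Among the 13482 genes at the minimum level the treatment difference was larger than both (0.15, against 0.078 and 0.073). The NDUFAF factors (0.18 for treatment, against 0.045 under vehicle and 0.054 under octanoate) and complex II (0.11, against 0.08 and 0.017) also had larger treatment differences than replicate differences. In complex V the values lay close together (0.091, against 0.09 and 0.08), and in complex IV the treatment difference was level with the vehicle spread and below the octanoate spread (0.09, against 0.09 and 0.15). In complexes I (0.06, against 0.07 and 0.11) and III (0.045, against 0.07 and 0.09) the treatment difference was the smallest of the 3. Replicate 1 was the higher library in both groups for 71 of the 86 members (82.6%), including each of the 9 members of complex III and 14 of the 15 of complex V. The share among the 13482 genes at the minimum level was 49.1%. The sign of some group medians changed with the libraries used. The median over all members ran from -0.04 without octanoate replicate 1 to 0.07 without octanoate replicate 2, that of complex I from -0.055 to 0.04, that of complex III from -0.046 to 0.07, and that of complex V from -0.10 to 0.03. The medians of the NDUFAF factors (0.06 to 0.11), of complex II (-0.12 to -0.07) and of complex IV (0.047 to 0.17) kept their sign with each library left out. Removing trends on GC content and transcript length also turned the medians of all members, complex I and complex III below 0 (-0.015, -0.038 and -0.023). In that fit, which is void as a check over all genes, the median of all tested genes moved below 0 as well, to -0.04. Equal column totals turned the median of complex I below 0 (-0.0031).

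**Figure D3:**
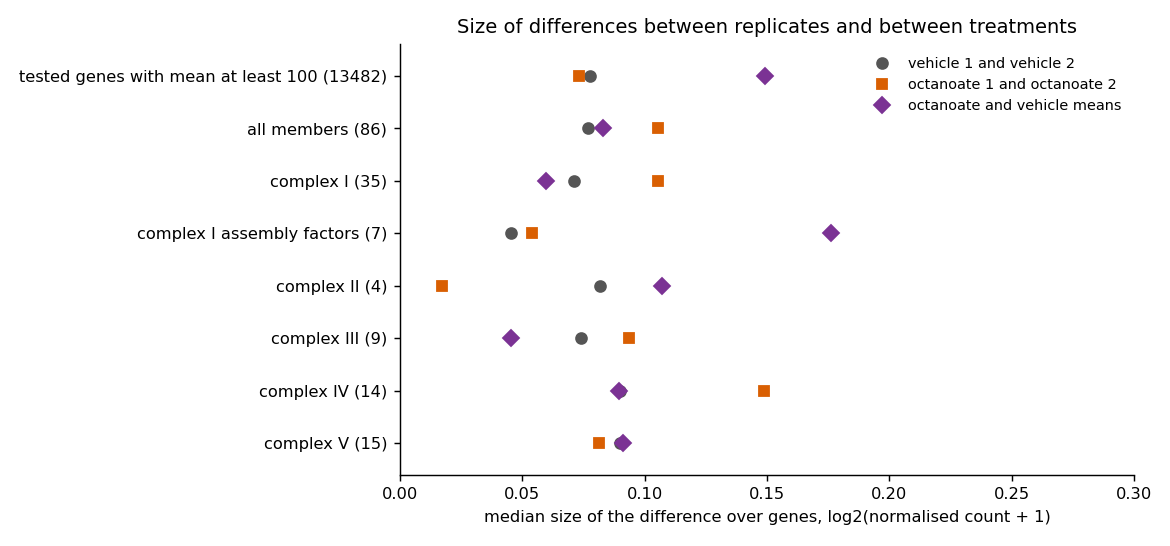
Median size of the difference on the log2(normalised count + 1) scale between the 2 vehicle libraries (circles), between the 2 octanoate libraries (squares) and between the octanoate and vehicle means (diamonds), for each group of genes. For all members the sizes were 0.077, 0.11 and 0.083, and for the NDUFAF factors the treatment difference of 0.18 lies above both replicate differences. Means of 2 libraries vary less than single libraries, so the diamonds are not like for like with the circles and squares.

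Promoters of 4 called members are shown, 2 that rose and 2 that fell. They were chosen by the rule below and not by the factor-binding cores they hold. RefSeq promoter windows (GRCh38.p14, 250 bases before to 50 after the start) were matched for 68 of the 86 members. Among called members with a single listed start and at most 30 exon bases in the upstream 250, which were left off, the 2 largest rises were NDUFAF4 and COX7B2 and the 2 largest falls UQCR11 and NDUFB10. The bases are printed 5′ to 3′ on the strand of the gene, and capitals mark the cores searched, on either strand: GCATGCG for NRF1, CCGGAAG for ETS factors such as GABP, AAGATGG for YY1, and, chosen after the values were seen, ACGTG for HIF and AAGGTCA for ESRRA. No searched core overlaps another in these windows, except that the palindrome CACGTG of UQCR11 holds the letters of the HIF core on both strands.
NDUFAF4, higher, chr6:96897892-96898141, minus strand: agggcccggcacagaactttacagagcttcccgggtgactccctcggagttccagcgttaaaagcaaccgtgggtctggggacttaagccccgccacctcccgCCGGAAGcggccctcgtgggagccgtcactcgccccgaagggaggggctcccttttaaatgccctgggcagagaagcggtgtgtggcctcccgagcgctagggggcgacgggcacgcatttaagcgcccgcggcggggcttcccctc
COX7B2, higher, chr4:46909246-46909495, minus strand: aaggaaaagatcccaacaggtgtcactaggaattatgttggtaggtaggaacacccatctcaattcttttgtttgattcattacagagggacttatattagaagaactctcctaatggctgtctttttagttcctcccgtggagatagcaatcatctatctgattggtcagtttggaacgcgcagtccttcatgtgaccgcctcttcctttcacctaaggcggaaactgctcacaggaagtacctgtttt
UQCR11, lower, chr19:1605491-1605712, minus strand: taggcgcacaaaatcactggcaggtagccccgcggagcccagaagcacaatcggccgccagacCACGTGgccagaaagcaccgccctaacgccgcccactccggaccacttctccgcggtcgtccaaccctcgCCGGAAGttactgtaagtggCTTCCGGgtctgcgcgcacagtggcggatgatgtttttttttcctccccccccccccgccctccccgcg
NDUFB10, lower, chr16:1959288-1959507, plus strand: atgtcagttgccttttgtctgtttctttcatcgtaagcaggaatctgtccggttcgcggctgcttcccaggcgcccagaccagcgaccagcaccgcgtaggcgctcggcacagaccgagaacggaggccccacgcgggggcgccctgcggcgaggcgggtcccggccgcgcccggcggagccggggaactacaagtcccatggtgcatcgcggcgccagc

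The ETS core stands once in the NDUFAF4 window and on both strands in that of UQCR11, so it occurs in a member that rose and in one that fell. NDUFAF4 also holds an NRF1 core 7 bases after the start, outside the printed bases. The COX7B2 and NDUFB10 windows hold none of the 5 cores, and COX7B2 stands apart in base composition, with 43.2% G and C against 65.3% to 68.6% in the other 3 windows. Over the 68 members with a window of 300 bases, the NRF1 core was present in 16 (23.5%), against 4.74% of 27305 genes and 7.33% of 11336 tested genes. The ETS core was present in 21 members (30.9%, against 12.2% and 20.2%), and the YY1 core in 17 (25.0%, against 7.11% and 9.02%). The HIF core was present in 17 (25.0%, against 24.9% and 31.7%), and the ESRRA core in 10 (14.7%, against 4.80% and 3.81%). Of the members with the NRF1, ETS, YY1, HIF or ESRRA core, 2 of 16, 4 of 21, 3 of 17, 3 of 17 and 1 of 10 were called. Among all members 18.6% were called, and among the genes at the minimum level 38.3%. A match describes the letters only and is not a binding site.

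In complex I, which oxidises NADH and pumps protons, 4 of 35 subunits were called. NDUFA3, a small accessory subunit of the membrane arm, was counted at 1760 and 1682 under vehicle and at 2178 and 2004 under octanoate. Both octanoate libraries were above both vehicle libraries, and NDUFA3 rose by 0.28 on the log2 scale (SE 0.068, adjusted p = 0.0030). It had the smallest p of complex I and was the only subunit of it called higher. NDUFA13 had a difference of the same size, 0.28, with 201.2 and 184 under vehicle and 239.7 and 229 under octanoate, without overlap, and did not pass the test (adjusted p = 0.098).

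NDUFC2, an accessory subunit of the membrane arm, was counted at 425 and 371 under vehicle and at 319.6 and 296 under octanoate. The octanoate values were both lower, and NDUFC2 fell by 0.37 (SE 0.11, adjusted p = 0.012). NDUFS3, a core subunit of the arm that carries electrons, had 5308 and 4905 under vehicle and 4634 and 4075 under octanoate. The groups did not overlap, and NDUFS3 fell by 0.23 (SE 0.066, adjusted p = 0.0096). NDUFB10, an accessory subunit at the distal end of the membrane arm, had 7883 and 7450.3 under vehicle and 6938 and 6449 under octanoate, and fell by 0.20 (SE 0.059, adjusted p = 0.014). Again neither octanoate library reached the lower vehicle library.

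Each of these 4 calls depended on single libraries. The 3 falls were lost without vehicle replicate 1 (adjusted p = 0.17 for NDUFC2, 0.138 for NDUFS3 and 0.139 for NDUFB10) and without octanoate replicate 2 (0.083, 0.229 and 0.203 in the same order), and the log2 difference of NDUFS3 was then -0.17 and -0.14. NDUFA3 was lost without octanoate replicate 1 (adjusted p = 0.062). Part of NDUFC2's exon sequence (16.3%) is shared with the read-through gene NDUFC2-KCTD14 on the same strand. NDUFC2-KCTD14 had 0 reads in every library, so reads of the shared part were counted for NDUFC2 or for neither gene. Of NDUFS3's exon bases, 19.6% lie in exons of PTPMT1, where reads may be assigned to either gene or to neither. For NDUFA3, 6.3% of the exon bases overlap TFPT on the other strand, and the strand setting of the counting is not given in the sources used here.

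The other 31 subunits of complex I were not called. The catalytic core was represented by 6 members, of which NDUFS3 alone was called. NDUFV1, which binds the flavin and NADH, had 10876 and 10118 under vehicle and 10924 and 10498 under octanoate. NDUFS1, the largest iron-sulfur subunit, had 10979.6 and 10808 under vehicle and 10889 and 10484 under octanoate. In both genes the groups overlapped, and the log2 differences were 0.03 (95% interval -0.09 to 0.15) and -0.03 (-0.14 to 0.088). NDUFAB1, the mitochondrial acyl carrier protein that is also a subunit of complex I, had 11408 and 11067 under vehicle and 11214 and 10666 under octanoate, a difference of -0.04 (-0.16 to 0.08). The widest interval belonged to NDUFS7, from -0.24 to 0.29 at a mean of 251, so a difference of that size was not detectable at its depth.

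The NDUFAF factors build complex I and do not stay in it, and 4 of 7 were called (57.1%, against 38.3% of the genes at the minimum level). NDUFAF3 and NDUFAF4, which act together in an early assembly intermediate, and NDUFAF2, which acts late, rose. NDUFAF6, an early factor linked to the mitochondrially encoded subunit ND1, fell.

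NDUFAF3 was counted at 3045 and 2643 under vehicle and at 3641 and 3334 under octanoate. Its vehicle libraries were far apart, yet both octanoate libraries were above them, and it rose by 0.30 (SE 0.07, adjusted p = 0.0022). NDUFAF4 had 1897 and 1929 under vehicle and 2467 and 2203 under octanoate. The groups did not overlap and the rise was 0.29 (SE 0.069, adjusted p = 0.0026). NDUFAF2 had 3515 and 3519 under vehicle and 4049 and 3900.4 under octanoate, both above vehicle, and rose by 0.18 (SE 0.06, adjusted p = 0.028). NDUFAF6 had 1481 and 1543 under vehicle and 1273 and 1229 under octanoate. Both octanoate libraries were below vehicle, and it fell by 0.27 (SE 0.071, adjusted p = 0.0048).

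The remaining 3 factors were not called. NDUFAF7, a methyltransferase that acts during the assembly of complex I, had 3118 and 3044 under vehicle and 3262 and 3241 under octanoate, without overlap, and a difference of 0.078 (adjusted p = 0.365). NDUFAF1 and NDUFAF5 overlapped between the groups, with differences of 0.056 and 0.04. NDUFAF3 shares 241 bases with DALRD3, which overlaps it on the other strand over 21.7% of its exon bases, and NDUFAF2 shares 510 bases with the transcript AC012065.5. NDUFAF3 was lost without vehicle replicate 2 (log2 difference 0.19, adjusted p = 0.087), as was NDUFAF6 (-0.24, 0.06), and NDUFAF4 was lost without octanoate replicate 1 (0.20, 0.082). NDUFAF2 was lost with any of the 4 libraries left out (adjusted p from 0.061 to 0.191). The number of calls among the 7 was then 1 without vehicle replicate 2 and 2 without octanoate replicate 1.

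Complex II oxidises succinate and is the only complex with no subunit from the mitochondrial genome. SDHD, one of its membrane anchors, was counted at 4945 and 5246 under vehicle and at 4744 and 4281 under octanoate. Both octanoate libraries were below vehicle, and SDHD fell by 0.18 (SE 0.063, adjusted p = 0.036). The call was lost without vehicle replicate 2 (-0.13, adjusted p = 0.24), without octanoate replicate 2 (-0.10, 0.41) and with TMM scaling (-0.16, 0.06). SDHD shares up to 480 bases with the pseudogene SDHDP6 and 11.2% of its exon bases with AP002884.3.

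SDHC, the other anchor, had 14880.2 and 14717 under vehicle and 13661 and 13896 under octanoate. SDHA, the flavoprotein that oxidises succinate, had 9934 and 9062 under vehicle and 8795 and 8773 under octanoate. Neither gene overlapped between the groups, and the differences of -0.10 and -0.11 did not pass the test (adjusted p = 0.17 and 0.164). SDHB, the iron-sulfur subunit, overlapped, with 10651 and 10087 under vehicle, 10614 and 10544 under octanoate and a difference of 0.03 (95% interval -0.087 to 0.15). The anchors and SDHA thus had values below vehicle and SDHB did not, although the difference between these subunits was not tested. SDHA shares up to 2004 bases with SDHAP2 and SDHC up to 422 with CFAP126, so reads there cannot be assigned with certainty.

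In complex III, which oxidises ubiquinol and reduces cytochrome c, UQCR11 alone was called. UQCR11, a small accessory subunit, was counted at 867 and 831 under vehicle and at 679 and 675 under octanoate. The libraries of each group lay close together and apart from the other group, and UQCR11 fell by 0.33 (SE 0.082, adjusted p = 0.0037). It and NDUFA4L2 were the 2 members called with each of the 4 libraries left out in turn (adjusted p from 0.014 to 0.049 for UQCR11). UQCR11 shares 10.9% of its exon bases with the gene AC005943.1 on the same strand, and it was not called without the intensity trend (adjusted p = 0.069).

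The other 8 members of complex III overlapped between the groups, with differences from -0.08 to 0.055. UQCRFS1, the Rieske iron-sulfur protein, had 8049 and 7629 under vehicle and 7719 and 7154 under octanoate, a difference of -0.08 (adjusted p = 0.36). UQCRC1, a core protein, had 19185 and 18052 under vehicle and 19548 and 18827 under octanoate, a difference of 0.04 (adjusted p = 0.62). UQCRH and its near copy UQCRHL had differences of 0.045 and 0.05, and reads cannot be divided between such copies with certainty.

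Complex IV, cytochrome c oxidase, had 5 members called (35.7%, against 38.3% of the genes at the minimum level). Each was higher (6 higher and 1 lower with GC content and length trends removed, a fit void as a check over all genes). Of its 14 members 11 had a positive difference, and each of the 8 whose groups did not overlap (57.1%) was higher under octanoate, where 69.5% of the genes at the minimum level did not overlap and 35% were higher without overlap. The 5 that rose were NDUFA4L2, COX7B2, COX7C, COX6C and NDUFA4, which encode small subunits or paralogs of them.

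NDUFA4L2, a paralog of NDUFA4 known as a hypoxia-induced gene, lies on the minus strand at chr12:57234903-57240715 in GRCh38. It was counted at 193 and 197 under vehicle and at 329 and 314 under octanoate. The libraries of each group lay close together and far from those of the other group, and NDUFA4L2 rose 1.65-fold, a log2 difference of 0.72 (SE 0.12, adjusted p = 4.3e-05). It was the member with the largest change and the only one called in every fit that was run (adjusted p = 0.028 without the intensity trend and 0.011 without the filter). Its exons overlap SHMT2 on the other strand over 1.2% of their bases, and no shared sequence with another gene was found.

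COX7B2, a paralog of COX7B, had 794 and 745 under vehicle and 987 and 872 under octanoate. Both octanoate libraries were higher, and COX7B2 rose by 0.27 (SE 0.084, adjusted p = 0.017). COX7C had 18723 and 17854 under vehicle and 22676 and 19319.8 under octanoate. The octanoate libraries were both higher but far apart, and COX7C rose by 0.20 (SE 0.066, adjusted p = 0.027). COX6C had 7226 and 6737 under vehicle and 8182 and 7477 under octanoate, and NDUFA4 had 11590.1 and 11184 under vehicle and 13376 and 12066 under octanoate. Neither overlapped between the groups, and both rose by 0.16 (adjusted p = 0.044 and 0.048).

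Without octanoate replicate 1, the differences of COX7C, COX6C, NDUFA4 and COX7B2 were 0.08, 0.0997, 0.084 and 0.18, and none of the 4 was called (adjusted p from 0.232 to 0.534). Without vehicle replicate 2 they were not called either (0.139 to 0.293), so that complex IV had 1 call, NDUFA4L2, in each of these fits. NDUFA4 was also lost without vehicle replicate 1 (adjusted p = 0.079). Raising the minimum level to 1000 left 3 calls in complex IV, since NDUFA4L2 and COX7B2 fall below it.

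**Figure D4:**
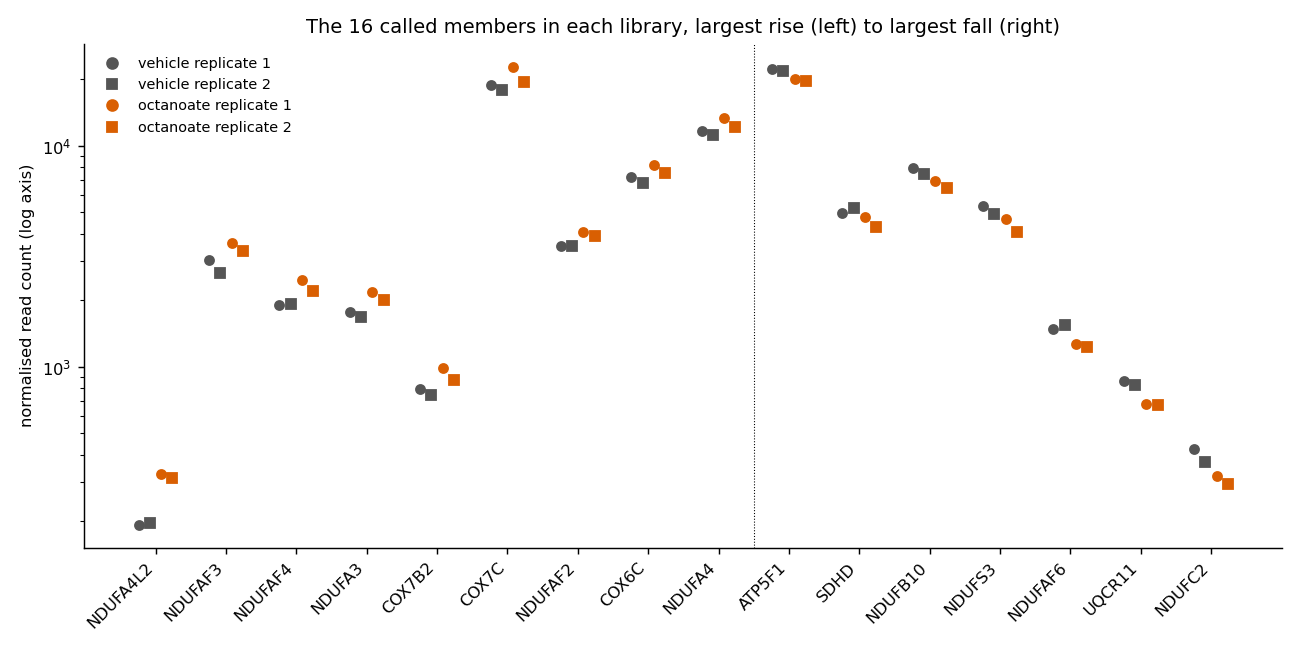
Normalised read count (log axis) of the 16 called members in each of the 4 libraries, grey for vehicle and orange for octanoate, with circles for replicate 1 and squares for replicate 2. The 9 genes left of the dotted line rose and the 7 to its right fell. The groups overlap for none of them, and NDUFA4L2 (193 and 197 under vehicle, 329 and 314 under octanoate) shows the widest gap.

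The other subunits of complex IV did not pass the test. COX4I1, the regulatory subunit that enters assembly early, had 23136 and 20723 under vehicle and 22079 and 21367 under octanoate, and COX5B had 8792 and 8268 under vehicle and 9059 and 8001 under octanoate. Both overlapped, with differences of -0.01 (95% interval -0.14 to 0.11) and -0.0020 (-0.13 to 0.13). COX7A2 had 10779 and 10275 under vehicle and 12499.6 and 11030.3 under octanoate, without overlap, and its difference of 0.16 missed the threshold (adjusted p = 0.058). It was called with TMM scaling, with equal column totals, with a filter at a mean of 50, and with edgeR and DESeq2 on the recovered reads (adjusted p from 0.032 to 0.046). The authors' deposited comparison did not call it (adjusted p = 0.071). COX7A2L, whose product joins complexes III and IV into supercomplexes, had 7647 and 7442 under vehicle and 8148 and 7803 under octanoate, a difference of 0.08 (adjusted p = 0.31).

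Complex V, the ATP synthase, had 1 call among 15 members. ATP5F1 (current symbol ATP5PB), which encodes the b subunit of the peripheral stalk, was counted at 22199.6 and 21644 under vehicle and at 19901 and 19625 under octanoate. Neither octanoate library reached vehicle, and ATP5F1 fell by 0.15 (SE 0.056, adjusted p = 0.046). The call was lost with any library left out (adjusted p from 0.074 to 0.24) and with TMM scaling (0.107). Its exons overlap WDR77 on the other strand over 10.3% of their bases, and it shares up to 442 bases with AC022968.1.

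The catalytic subunits had values below vehicle that did not pass the test. ATP5B (ATP5F1B), the beta subunit, had 87669 and 83412 under vehicle and 78716 and 77794 under octanoate, and ATP5A1 (ATP5F1A), the alpha subunit, had 39253 and 36435 under vehicle and 36025 and 34594 under octanoate. Neither overlapped, and the differences were -0.13 (adjusted p = 0.126) and -0.099 (0.226). ATP5B was called with equal column totals (adjusted p = 0.026) and with DESeq2 on the recovered reads (0.014), which made 2 calls in complex V. The authors' deposited comparison did not call ATP5B (adjusted p = 0.051).

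ATP5G1, ATP5G2 and ATP5G3 (ATP5MC1 to ATP5MC3) encode the same mature c subunit of the rotor ring. Their differences were 0.12, 0.11 and 0.045 (adjusted p = 0.164, 0.165 and 0.59). ATP5G1 had 6229 and 5481 under vehicle and 6527 and 6183 under octanoate and overlapped, whereas ATP5G2 (14493 and 13878, then 15823 and 14782) and ATP5G3 (13459.9 and 13267, then 14066 and 13521) did not. ATP5S and ATP5SL had differences of 0.09 and -0.11 and were not called.

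The members with the lowest means were NDUFA13 (213), NDUFS7 (251), NDUFA4L2 (258) and NDUFB8 (288). Outside the rule were NDUFV2 (54.1), COX6B2 (44.5), NDUFA7 (29.6) and COX7A1 (26.6), and the tissue-specific forms COX4I2, COX6A2 and COX8C had no more than 2 reads in a library. COX6B2, the testis form of COX6B, was counted at 24.5 and 27.1 under vehicle and at 63.5 and 62.9 under octanoate. Its log2 difference was 1.26 in the limma fit of all genes (adjusted p = 0.00053, and 0.020 in the authors' comparison). NDUFV2, a core subunit of complex I, was counted at 50.1 and 33.9 under vehicle and at 58.7 and 73.7 under octanoate. The difference of NDUFV2 was 0.66 (limma adjusted p = 0.044, and 0.27 in the authors' comparison). Neither is a member, as both means lie well under the threshold of 100. COX7A1, the form found in heart and muscle, had 31.4 and 29.1 under vehicle and 21.2 and 24.9 under octanoate (-0.38, adjusted p = 0.40).

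The annotation limits which members can be read with confidence. In GENCODE 29, 35 members have exon bases that overlap a gene on the opposite strand, 21 overlap a gene on the same strand, and 41 share at least 100 bases at 95% identity or more with another gene. The 33 members free of all of these included 4 calls (3 higher and 1 lower): NDUFAF4, COX7B2, COX6C and NDUFB10. The other 53 members included 12 calls (22.6%, against 12.1% of the 33 and 38.3% of the genes at the minimum level). Exon overlap counted on either strand did not go with a low mean throughout. NDUFS7 and NDUFB8 had overlaps of 49.1% and 48.5% at means of 251 and 288, NDUFA13 and NDUFA4L2 had 21.0% and 1.2% at 213 and 258, and NDUFB11 and NDUFA1 had 44.9% and 44.5% at 7622 and 5988. The overlap of NDUFB11 and NDUFA1 lay on the opposite strand. Overlap on the same strand, at means under 1000, was 33.8% for NDUFB8, 21.0% for NDUFA13, 19.6% for ATP5O and 16.3% for NDUFC2. It was 10.9%, 10.6% and 9.7% for UQCR11, NDUFA9 and NDUFA11, and 0.0% for NDUFS7, NDUFA4L2, COX7B2 and ATP5I. At higher means, COX8A, NDUFS3 and NDUFC1 had 34.5%, 19.6% and 18.5%. The part of these overlaps in the counts was not tested.

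In the authors' deposited table, 11 of the 86 members (12.8%) had an adjusted p under 0.05, 6 higher and 5 lower, where 25.1% of the 17280 genes with an adjusted p under 1 and 12.9% of all 33533 listed genes did. Each of these 11 was among the 16 called with limma. The 5 called with limma alone were COX6C, COX7B2, NDUFA4, NDUFC2 and SDHD. Both scalings of the whole table were also checked for the balance of directions: 9 members were called higher and 7 lower as deposited, 10 and 5 with TMM factors (14 of the 16 kept, 1 added), 10 and 8 with equal column totals (16 kept, 2 added), and 10 and 19 once trends on GC content and transcript length were removed (16 kept, 13 added). Over the 15566 tested genes found in GENCODE 29, 2920 were called higher and 2631 lower before those trends were removed, and 2965 and 4091 after. The fit with those trends removed covered 76.9% of the tested genes and is void as a check over all genes. Without the filter on low genes 2 members were called and without the intensity trend 1.

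The rest of the pathway was read from lists of other assembly factors, electron carriers with ubiquinone synthesis, regulators and mitochondrially encoded subunits. The shares called are to be read against the 29.9% of all tested genes and the 38.3% at a mean of 100 or more. Of 47 other assembly factors, 11 were called (23.4%, 8 higher and 3 lower), with a median difference of 0.01. COX17, the copper chaperone that supplies complex IV, was counted at 4746 and 4714 under vehicle and at 6557 and 5765 under octanoate. Both octanoate libraries were higher and COX17 rose by 0.38 (SE 0.063, adjusted p = 5.9e-05). COA1, which acts in the assembly of complexes I and IV, had 7709 and 7563 under vehicle and 9528 and 9605 under octanoate, and rose by 0.33 (SE 0.056, adjusted p = 7.9e-05). Neither was called without the intensity trend (adjusted p = 0.096 and 0.065).

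Of 18 genes of electron carriers and ubiquinone synthesis, 6 were called (33.3%, 5 higher and 1 lower). ETFA, a subunit of the flavoprotein that takes electrons from acyl-CoA dehydrogenases, had 16326 and 16031 under vehicle and 21776 and 20586 under octanoate, without overlap. ETFDH, which passes those electrons to ubiquinone, had 1325 and 1368 under vehicle and 1692 and 1789 under octanoate, also without overlap. They rose by 0.39 and 0.37 (adjusted p = 1.0e-05 and 0.00024, and 0.059 and 0.065 without the intensity trend). Cytochrome c itself, CYCS, had 19758 and 20096 under vehicle and 21977 and 20868 under octanoate, a difference of 0.10 that did not pass the test (adjusted p = 0.177).

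Of 12 regulators, 5 were called (41.7%, 4 higher and 1 lower). MYC, a transcription factor with targets among mitochondrial genes, had 1112 and 1034 under vehicle and 1698 and 1660.3 under octanoate, both higher, and rose by 0.65 (SE 0.072, adjusted p = 1.9e-07). PPARGC1B, a coactivator related to PGC-1alpha, had 869 and 900.05 under vehicle and 1207 and 1245 under octanoate, and rose by 0.47 (SE 0.075, adjusted p = 3.4e-05). ESRRA and POLRMT rose by 0.33 and 0.22, and TFAM, which packages mitochondrial DNA, fell by 0.20. PPARGC1A was low (38.3 to 57.4) and NRF1 and GABPA had differences of -0.0052 and -0.14 (adjusted p = 0.97 and 0.079).

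The 13 subunits encoded by the mitochondrial genome belong to the same complexes and were changed in part, with 6 called (46.2%, 5 higher and 1 lower). MT-ND4 and MT-ND4L rose by 0.58 and 0.48, MT-ATP8, MT-ATP6 and MT-ND6 by 0.26, 0.24 and 0.18, and MT-ND1 fell by 0.31. The 3 mitochondrially encoded subunits of complex IV were not called, with differences from 0.0028 to 0.145. MT-ND4L and MT-ND4 overlap in the genome, as do MT-ATP8 and MT-ATP6, so reads of such a pair cannot be fully separated. For complex I, therefore, 4 of 7 mitochondrially encoded and 4 of 35 nuclear-encoded subunits were called, and the difference between the groups was not tested.

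**Figure D5:**
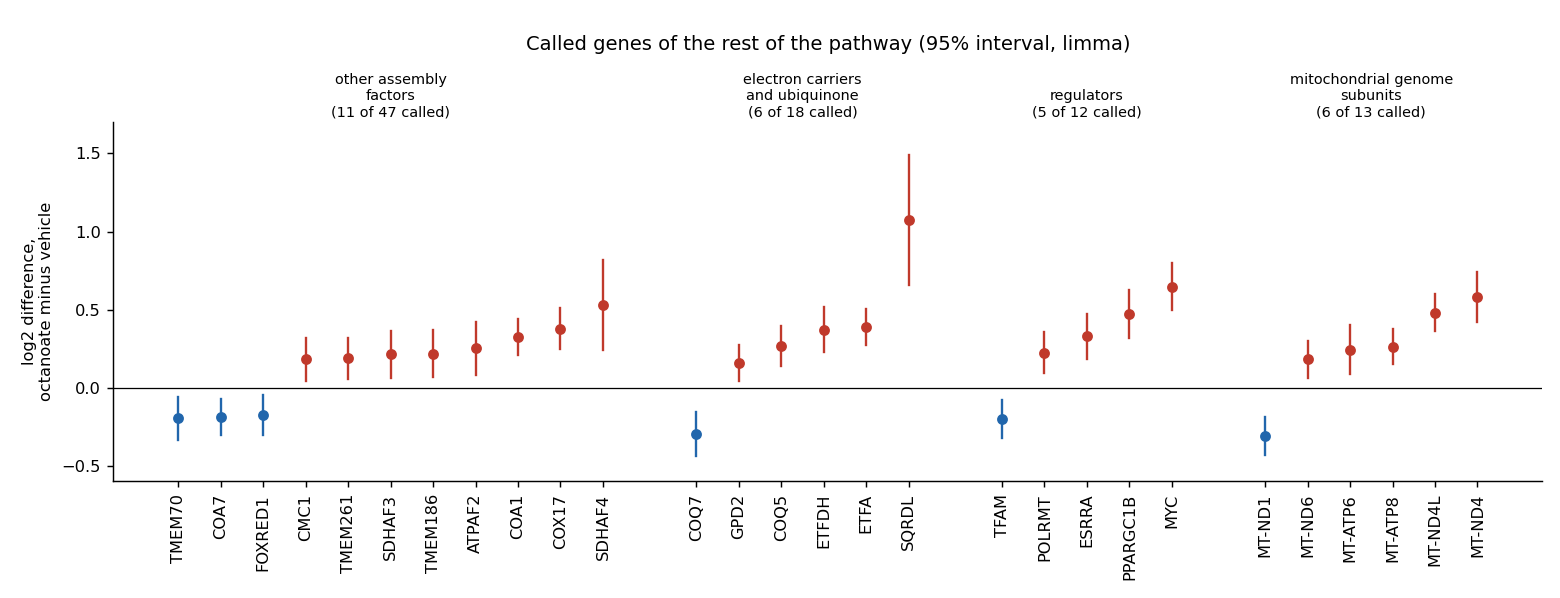
Log2 difference with its 95% interval (limma) for the called genes of the rest of the pathway, red for higher and blue for lower under octanoate. The brackets give the genes called and listed, from 11 of 47 other assembly factors to 6 of 13 mitochondrially encoded subunits.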

How the data were processed

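RNA was measured by sequencing in 4 libraries of A375 cells, 2 per group. The submitters' processing notes name bcl2fastq 2.17, Trim Galore, STAR 2.4, Picard, HTSeq 0.9.1, DESeq2 and the build hg38. The annotation, the roles and settings of these tools and the strand setting are not given in the sources used here. The authors deposited a signal per gene, by its table name a read count normalised by DESeq2. Every positive value was within 0.01 of a whole multiple of its library's step (100% in each library), so whole reads were recovered. The values carry no correction for length, and levels are compared within a gene only. The authors' deposited comparison holds a log2 fold change, a score for the test, a p-value and an adjusted p-value.

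Because the deposited values are not raw counts, limma 3.58.1 (R 4.3.3) was fitted to log2(normalised count + 1) with an intensity trend. Genes with a mean of at least 10 were tested (20250), two-sided, with Benjamini-Hochberg adjustment over all of them, and called where the adjusted p was under 0.05. This scale understates the change of low genes, and folds and 95% intervals come from it. The fits were tested on simulated data. The members and lists were chosen with earlier results of these data known, so no list was tested. Named were the 6 largest rises and 6 largest falls among called members whose groups did not overlap, the smallest p of each complex, key subunits whatever their values, and the 2 smallest p of the lists of assembly factors, carriers and regulators. Any other gene was named once its values were known. The values of 1 member are not reported here, although the counts over members include it.

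Settings also tried were a pseudocount of 0.5 or 5, omitting the filter, a filter at 50, TMM factors, equal column totals, no intensity trend, the replicate number as a block, each library left out, edgeR 4.0.16 (quasi-likelihood) and DESeq2 1.42.0 on those reads, and a member minimum of 1000. Added after the data were seen were genes found in GENCODE 29 only (15566 of 20250, 76.9%) and removal of GC content and length trends from these genes. That coverage is below 80% of the genes tested, so the latter is void as a check over all genes, although each of the 86 members has a value. Exon overlaps came from GENCODE 29 (GRCh38) and shared sequence from blastn 2.17.0.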

Additional observations from a re-analysis of the deposited data

Results flagged for a closer look

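A row left out of the members as a pseudogene held reads in every library. NDUFV2P1 had a mean normalised count of 349.5, with 388 and 322 under vehicle and 357 and 332 under octanoate. Its groups overlapped (log2 difference -0.04, adjusted p = 0.84). The parent gene NDUFV2 had a mean of 54.1.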

How the results depend on the processing

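Values of the named genes under the alternatives numbered 654. Of these, 576 stayed on the same side of the threshold, 54 were no longer called, 24 became called, and 0 changed sign past the threshold. With 6048 genes, 16 members and 28 other pathway genes called as reported, omitting the filter left 2595, 2 and 12, and omitting the intensity trend left 1625, 1 and 4. Without the filter the counts were 0 for complex I, 0 for the NDUFAF factors, 0 for complex II, 1 for complex IV and 0 for complex V. Without the intensity trend they were 0, 0, 0, 1 and 0, and 0 for complex III. TMM factors gave 0 for complex II and 0 for complex V, and equal column totals and DESeq2 gave 2 for complex V. A member mean of at least 1000 gave 0 for complex III and 3 for complex IV. With GC content and length trends removed, 29 members were called (9 in complex I, 2 in complex II, 5 in complex V), with 16 of 16 calls kept. The share called was 33.7% of members, against 45.3% of the genes in that fit, and the median of all tested genes moved to -0.04. With 1 library left out, calls ranged from 8 to 12 for all members, 1 to 4 for complex I, 1 to 4 for the NDUFAF factors, 0 to 1 for complexes II and V, 1 to 6 for complex IV and 16 to 20 for the other pathway genes, where a lone sample is assumed to vary like the other group. The cause of these shifts was not tested, beyond the fewer samples or genes some fits used.

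The replicate number as a block raised the calls to 31 members (15 higher, 16 lower) and lost 0 of the 16. There were 10 in complex I, 3 in complex II and 6 in complex V. The calls rose over the whole table in that fit, to 41.4% of all tested genes, against 36.0% of members. The labels do not say that the numbers pair the libraries, and with 2 pairs the correlation of deviations (0.126 between vehicle 1 and octanoate 1) cannot settle it. Depth limits the members with the lowest means, such as NDUFS7, whose 95% interval runs from -0.24 to 0.29.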

Other observations

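Subunits and factors listed under older symbols were not taken by the patterns. None of these 4 was called with limma (0 of 4). ATPIF1 (ATP5IF1), the inhibitor of ATP synthase, had 6892 and 6684 under vehicle and 6833 and 6243 under octanoate, which overlapped, with a difference of -0.055 (adjusted p = 0.53). USMG5 (ATP5MK) and C14orf2 (ATP5MJ), small membrane subunits of complex V, had differences of 0.10 and 0.07. C17orf89 (NDUFAF8) had 4986 and 3743 under vehicle and 5068 and 2761 under octanoate, so that replicate 1 was the higher library in both groups, and its difference was -0.21 (SE 0.15).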
